A study of Homo sapiens with 8 samples.

Results

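Small noncoding RNAs outside tRNA were followed through a pulldown of aldehyde-bearing RNA: the spliceosomal U RNAs, the small nucleolar RNAs (snoRNAs) and scaRNAs, 7SK, 7SL, the Y RNAs, the vault RNAs and the miRNA precursors. A peak was counted when it overlapped, by at least 1 nt on the same strand, a nuclear GENCODE release 44 gene of 1 of these types. This selected 645 of 4746 listed peaks. Merged across libraries, they formed 218 of 1373 regions and lay in 217 genes. Of the 218 regions, 92 were in C/D box snoRNAs other than U3, 52 in H/ACA box snoRNAs, 14 in miRNA precursors, 10 in 7SL, 8 in U5, 8 in U1, 8 in scaRNAs, 7 in Y RNAs, 4 in minor spliceosomal RNAs, 3 in vault RNAs, 3 in U2, 3 in U6, 2 in U4 and 1 each in 7SK, U3, U7 and an snoRNA without a symbol. Of these, 25 were in pseudogene or unnamed copies and are described as copies. Members shared gene families, host genes and in places nearly all of their sequence, so they are not independent measurements.

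The study compared wild-type (WT) cells of the human embryonic kidney line HEK-293 with an ALKBH1 knockout (KO) of the line. ALKBH1 is a dioxygenase that oxidizes 5-methylcytidine to 5-formylcytidine. Total RNA was fragmented, treated with the aldehyde-reactive probe (ARP), a biotin reagent that couples to aldehydes such as the one of 5-formylcytidine, and divided into an input and a streptavidin pulldown (IP). The 4 groups (WT input, KO input, WT IP and KO IP) held 2 libraries each. All groups received the probe, no treatment was given to the cells, and a 5-formylcytidine oligonucleotide was added to all of them. According to the methods the KO came from CRISPR/Cas9 editing of HEK293T and expansion of colonies from sorted single cells, and more than 1 ALKBH1 KO line was made. Which line or lines gave these libraries is not given in the sources used here, and a difference between the lines cannot be told apart from a difference between clones. The study called its replicates biological without saying what was repeated, and p-values measure the spread between these libraries. No library had a listed peak in ALKBH1, so these lists do not check the knockout.

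Small noncoding RNAs work mostly as guides or scaffolds inside ribonucleoprotein particles. C/D box snoRNAs guide 2′-O-methylation and H/ACA box snoRNAs guide pseudouridylation of rRNA, while scaRNAs do the same for spliceosomal RNAs in Cajal bodies. U1, U2, U4, U5 and U6 build the major spliceosome, 7SL is the scaffold of the signal recognition particle, 7SK holds the elongation factor P-TEFb inactive, Y RNAs bind the Ro60 protein, and vault RNAs are polymerase III transcripts known to carry 5-methylcytidine set by NSUN2.

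Of the RNAs with a peak in an IP, 9 are given 5′ to 3′ and as DNA letters, from the GENCODE release 44 transcripts on GRCh38. Capitals mark the stretch shared by the peaks of all IP libraries that listed one. Positions are counted from 1 at the annotated 5′ end, with 0 and negative values upstream of it. RNU4-2 (chr12:120291763-120291903, minus strand) is U4, which pairs with U6 before activation. RNU12 (chr22:42615244-42615393, plus strand) is the minor spliceosome's counterpart of U2.
RNU4-2: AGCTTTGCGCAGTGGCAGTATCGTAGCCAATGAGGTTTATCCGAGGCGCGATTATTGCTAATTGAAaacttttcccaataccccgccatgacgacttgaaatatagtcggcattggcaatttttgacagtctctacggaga
RNU12: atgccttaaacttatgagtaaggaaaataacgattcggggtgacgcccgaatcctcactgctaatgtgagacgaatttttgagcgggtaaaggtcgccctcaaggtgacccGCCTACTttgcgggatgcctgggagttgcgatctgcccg
SNORD118 (chr17:8173454-8173587, minus strand) is U8, needed for processing of the large-subunit rRNA. SNORD57 (chr20:2656939-2657010, plus strand) and SNORD24 (chr9:133349396-133349470, plus strand) are intron-encoded guides of rRNA methylation, in NOP56 and RPL7A.
SNORD118: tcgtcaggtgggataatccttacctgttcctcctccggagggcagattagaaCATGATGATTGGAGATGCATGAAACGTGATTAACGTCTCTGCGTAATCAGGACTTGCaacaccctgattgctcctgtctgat
SNORD57: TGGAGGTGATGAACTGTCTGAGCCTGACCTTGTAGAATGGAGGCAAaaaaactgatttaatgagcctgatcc
SNORD24: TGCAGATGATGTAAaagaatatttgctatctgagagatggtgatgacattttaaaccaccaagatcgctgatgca
VTRNA1-1 (chr5:140711275-140711373, plus strand) and VTRNA1-2 (chr5:140718925-140719013, plus strand) are vault RNAs with 80.8% identity. RNY1 (chr7:148987136-148987248, minus strand) is a Y RNA.
VTRNA1-1: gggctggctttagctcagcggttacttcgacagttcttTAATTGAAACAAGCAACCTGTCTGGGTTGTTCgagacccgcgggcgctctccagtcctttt
VTRNA1-2: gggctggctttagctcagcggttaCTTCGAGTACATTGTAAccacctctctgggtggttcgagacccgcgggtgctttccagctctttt
RNY1: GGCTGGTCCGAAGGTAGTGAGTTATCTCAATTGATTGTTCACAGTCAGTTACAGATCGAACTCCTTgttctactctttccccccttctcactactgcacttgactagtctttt
Of RN7SK (chr6:52995621-52995948, plus strand), positions 201 to 328 are printed, since its peaks lay there.
RN7SK: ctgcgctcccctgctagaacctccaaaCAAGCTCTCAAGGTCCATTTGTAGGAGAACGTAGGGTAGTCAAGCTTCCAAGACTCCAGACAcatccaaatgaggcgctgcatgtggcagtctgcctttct

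Each listed peak carries a cDNA count, the number of unique molecules in it. Summed over both peak lists, the libraries held between 48380 and 285539 counts, with the KO inputs the deepest (194494 and 285539) and the WT inputs at 94218 and 98032. Peaks were listed only from 10 counts upward, which was worth 106 and 102 CPM (counts scaled by the total of all peak counts of the library to a common total) in WT input, 51.4 and 35.0 in KO input, 153 and 207 in WT IP and 187 and 192 in KO IP. The peak caller can also leave out a region for other reasons than its count, so a region without a listed peak was not shown to be absent or below that minimum. CPM are counts per gene region without correction for length, and are compared between libraries, not between genes. Intervals of shares cover counting error only.

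Small noncoding RNA took a larger part of the inputs than of the IPs, and a larger part of the KO libraries than of the WT libraries. Its share of all peak counts was 3.17% and 3.50% in WT input against 5.35% and 6.19% in KO input. In the pulldowns it was 1.87% and 1.47% for WT and 2.92% and 2.89% for KO. The groups did not overlap in any of these 4 pairings, and the widest 95% Wilson interval of a single library was 2.75% to 3.04% (KO IP replicate 2). The difference of the mean shares, in percentage points, was -1.66 for WT IP minus WT input and -2.86 for KO IP minus KO input. Between the lines it was -2.43 for WT input minus KO input and -1.24 for WT IP minus KO IP. With 2 libraries against 2, the two-sided exact permutation test cannot go below 0.33, which is the p of each of these comparisons.

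The 92 C/D box snoRNA regions took 1.03% ± 0.0727 (SD, n = 2) of WT input and 2.49% ± 0.189 of KO input, and were at 0.246% ± 0.0785 in WT IP and 0.571% ± 0.0371 in KO IP. H/ACA box snoRNAs were at 0.149% ± 0.00466 in WT input, 0.504% ± 0.0979 in KO input, 0.0168% ± 0.0238 in WT IP and 0.0275% ± 0.000868 in KO IP. The WT IP value rests on 2 regions of replicate 1 with 11 counts each, and the KO IP value on SNORA25 alone. No H/ACA region reached 207 CPM, the highest list minimum, in both WT inputs, so a lower IP share can come from that minimum. 7SL was at 0.983% ± 0.0173 in WT input, 1.09% ± 0.0794 in KO input, 0.983% ± 0.128 in WT IP and 1.63% ± 0.0604 in KO IP. U5 took 0.554% ± 0.0771 of WT input and 0.160% ± 0.0445 of WT IP, and 0.647% ± 0.0590 of KO input and 0.253% ± 0.0606 of KO IP. Vault RNAs held 0.146% ± 0.0136 of WT input, 0.144% ± 0.000265 of KO input, 0.0493% ± 0.00920 of WT IP and 0.0435% ± 0.0153 of KO IP. Family shares were given no test.

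**Figure D1:**
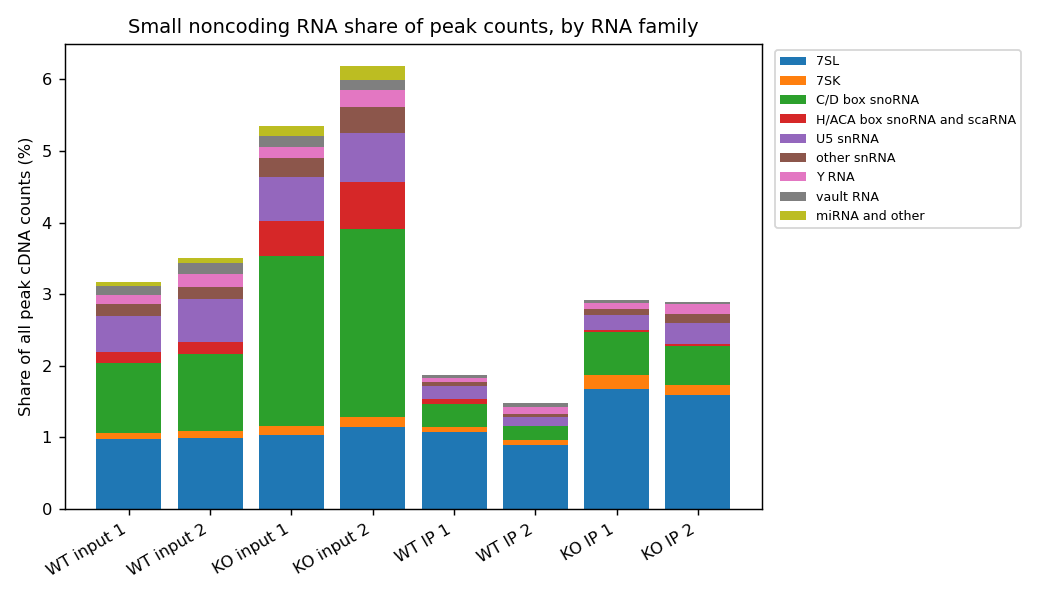
Share of all peak cDNA counts (%) in each library that lay in small noncoding RNA, stacked by RNA family, 1 bar per library. The KO inputs reach 5.35% and 6.19% and the WT inputs 3.17% and 3.50%, and 7SL makes up most of every IP bar.

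More regions were seen in the inputs than in the IPs, and more in KO than in WT. Of the 218 regions, 165 had a peak in both KO inputs, 68 in both WT inputs, 27 in both KO IPs and 15 in both WT IPs. A set of 12 regions had a peak in all 8 libraries, 38 were seen in all 4 inputs and in no IP, and 48 in a single library. The KO inputs alone held 110 regions, of which 69 were in both of them and 40 in the deeper replicate 2 only. Over both lists and all RNAs, the KO inputs held 744 and 1047 peaks and the WT inputs 608 and 592. The WT IPs held 568 and 414 and the KO IPs 402 and 371. The same region counts were not made over all 1373 regions, so those given here do not set small RNA apart. At a common level of 207 CPM, the highest list minimum, the WT inputs held 31 and 39 regions, the KO inputs 70 and 76, the WT IPs 16 and 15 and the KO IPs 25 and 30.

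Of 78 regions with a peak in both KO inputs and none in a WT input, 31 lay at or above the larger WT input minimum in both KO libraries. SNORD45A, a guide of rRNA methylation in RABGGTB, had 334 and 396 CPM in the KO inputs. SNORD45C of the same host gene had 273 and 333, SNORD49A had 237 and 270, SNORD69 had 211 and 280, and SCARNA7 had 221 and 217, with no WT input peak for any of them. In all, 94 genes were listed in both libraries of KO input and of no other group. By counts, the leading ones were SNORD15B, SNORD45A, SNORA10, MIR17, SNORD49A, SNORD69, SNORD11B, SNORD58A, SCARNA7 and RN7SL183P, a 7SL copy. SNORD15B also had 20 counts in WT input replicate 2 and 10 in KO IP replicate 1, and SNORD45A had 11 in WT IP replicate 1. SNORA10, MIR17, SNORD11B and SNORD58A had a listed peak in a WT input as well, while SNORD49A, SNORD69, SCARNA7 and RN7SL183P had none outside the KO inputs. The only such gene of WT input was a Y RNA copy (Y_RNA, ENSG00000207061), with 14 counts in each WT input library and 13 in KO input replicate 2. No gene was listed in both libraries of an IP group and in both libraries of no other group. A share over all regions was not computed for the 78 regions or the 94 genes. The list minimum was lower in the KO inputs than in the WT inputs.

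Of the regions with high input, a smaller part had an IP peak among the small RNAs than among the other regions of the lists. In WT, 27 regions stood at or above 207 CPM in both inputs, and 14 of them (51.9%) had a peak in both IPs and 11 (40.7%) in neither, against 68.4% and 18.8% of 288 other regions. In KO, 70 regions stood at or above 192 CPM in both inputs, and 22 (31.4%) had a peak in both IPs and 41 (58.6%) in neither, against 63.2% and 24.8% of 302 others. These are counts of regions with no test. The level used was the larger IP list minimum of the line, so a region just above it can lack an IP peak without a lower share. In WT input RNU11 lay at 1.28 times that minimum and SNORD27 at 3.95 times. The small RNA and other regions were not matched for input height. Regions with high input and no IP peak in either line included SNORD27 and SNORD30, which share the host gene SNHG1, RNU11 of the minor spliceosome, and the region of MIR19A and MIR20A. SNORD27 had 849 and 786 CPM in WT input against 1141 and 1243 in KO input. SNORD30 had 552 and 602 in WT input against 884 and 1019 in KO input. None of the 14 miRNA regions had a peak in an IP, while all 14 were seen in a KO input and 3 in a WT input. Only the region of MIR19A and MIR20A stood at or above 207 CPM in both WT inputs. Only that region and MIR17 stood at or above 192 CPM in both KO inputs. For the other miRNA regions a missing IP peak can come from the list minimum alone. The region of MIR19A and MIR20A, members of the miR-17-92 cluster, led the miRNA regions at 393 and 357 CPM in WT input against 524 and 606 in KO input. In WT input it was 1 peak from position 46 to 181 of MIR19A, a gene of 82 nt. In KO input it was split into a peak at positions 46 to 48 with 40 and 59 counts and a peak at 180 to 183, past the end of MIR19A, with 62 and 114 counts.

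Most peaks began at the 5′ end of the mature RNA. Of 645 peaks, 363 (56.3%) started within 3 nt of the annotated 5′ end, with 60.6% of WT input, 55.6% of KO input, 38.6% of WT IP and 61.5% of KO IP peaks. The median peak was 56.0 nt long. RNY1 peaks ran from positions -2 to 66 or 67 in the inputs and from 0 or -1 to 66 in the IPs. The RN7SK peaks lay between positions 211 and 308, and those of the tested RN7SL1 region between 132 and 274. A further RN7SL1 peak in KO input replicate 2 ran from -2 to 24 with 10 counts, and the 5 RN7SL3 peaks began at 69, 70 or 102. Among the C/D box members, TGATGA (box C) lay in the first 20 nt of 64.1% of 92 genes, against 65.3% of all 314 annotated SNORD genes. CTGA (box D) lay in the last 15 nt of 92.4% of them, against 87.3% of all. ACA lay in the last 8 nt of 90.4% of 52 H/ACA members, against 82.2% of 214 annotated SNORA genes. Only the sense strand of each gene was searched.

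In the WT IPs, the peaks of the vault RNAs VTRNA1-1 and VTRNA1-2 began later than in the inputs. VTRNA1-1 peaks ran from -1 or -2 to between 70 and 72 in the 4 inputs, with 32, 43, 75 and 115 counts. In the WT IPs they ran from 25 to 70 with 16 counts and from 39 to 70 with 13 counts, and no KO IP peak was listed. VTRNA1-2 peaks began at -1 or -2 in the inputs and in both KO IPs, and at 25 and 11 in the WT IPs. The peaks of SNORD118 covered nearly all of the RNA in the inputs, from -3 or -4 to 131 or 142, and began at 12 and 53 in the WT IPs and at 0 in both KO IPs. The RNAs with a later start in the WT IPs were chosen after their positions were seen, and these IP peaks rest on 11 to 22 counts each.

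**Figure D2:**
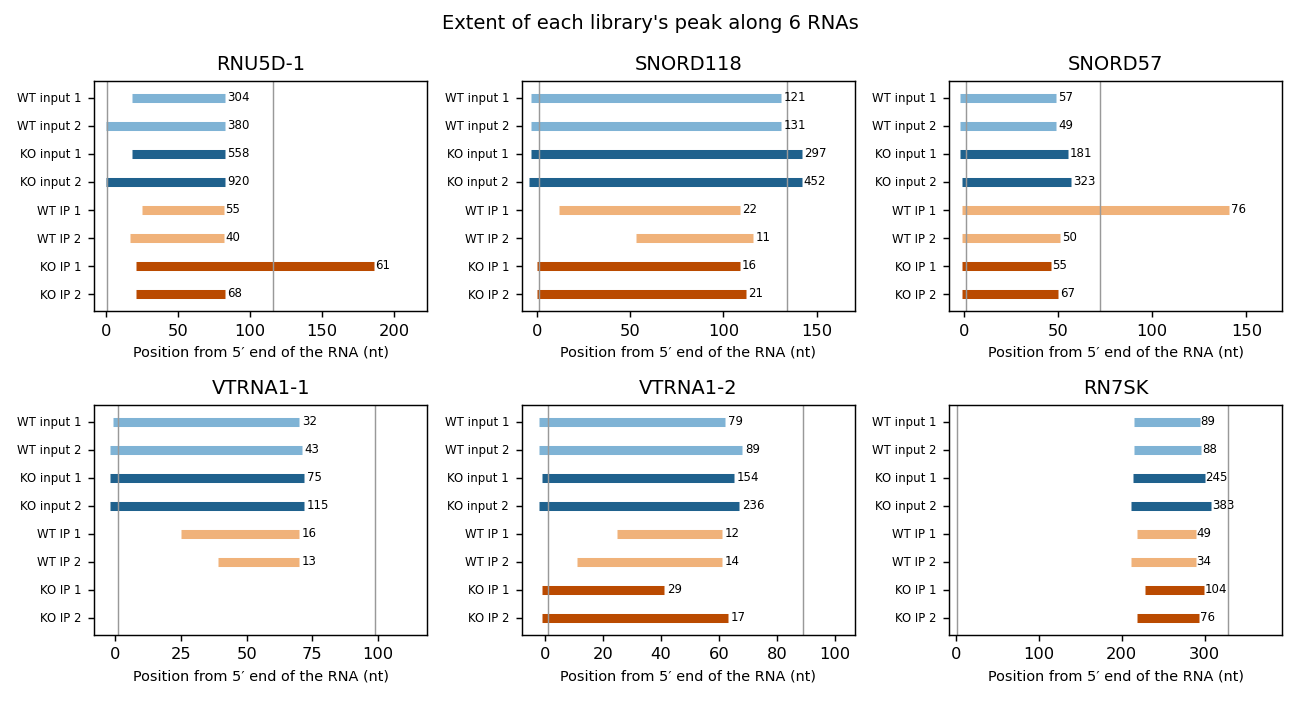
Extent of the peak of each library (rows) along 6 RNAs, with the position from the 5′ end in nt on the horizontal axis, grey lines at both annotated ends and the cDNA count beside each bar. VTRNA1-1 has no KO IP peak, the WT IP peaks of both vault RNAs start inside the RNA, and single peaks of SNORD57 (WT IP 1) and RNU5D-1 (KO IP 1) run past the 3′ end.

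For WT, the comparison of IP with input asked which RNAs the probe enriched. Regions with a peak in all 4 libraries were fitted together with all other such regions of both lists (edgeR quasi-likelihood, adjusted p under 0.05). Of 14 small RNA regions tested, 5 (1 higher, 4 lower) passed, with 48.1% of all 243 regions called in either direction, 23% higher and 25.1% lower. Over the 14 the median log2 fold change was -0.39, beside -0.17 over all regions. A region had to be listed in the shallow IPs to be tested, so regions without a listed IP peak are not in these counts.

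RNU5D-1, a variant of U5, the snRNA that holds exon ends during splicing, had the smallest adjusted p among the small RNAs. It had 3227 and 3876 CPM in WT input against 841 and 827 in WT IP. The log2 fold change was -2.16 ± 0.18 (SE, adjusted p = 0.00165). SNORD118 had 1284 and 1336 CPM in WT input against 336 and 227 in WT IP, a log2 fold change of -2.27 ± 0.26 (adjusted p = 0.00281). VTRNA1-2 had 839 and 908 in input against 183 and 289 in IP (-1.96 ± 0.31, adjusted p = 0.00926). RNU5A-8P, a copy of U5 with 83.1% identity to RNU5A-1, had 488 and 653 in input against 168 and 227 in IP (-1.60 ± 0.32, adjusted p = 0.0170). Its IP peaks held 11 counts each, near the list minimum of 10. In all 4 RNAs both IPs lay below both inputs. SNORD57 went the other way, with 605 and 500 CPM in input against 1162 and 1033 in IP (0.92 ± 0.22, adjusted p = 0.0280). Its peak in WT IP replicate 1 ran to position 141 of an RNA of 72 nt, so its 76 counts include sequence past the 3′ end of the snoRNA, inside NOP56. With DESeq2 the SNORD57 change was 1.06 with an adjusted p of 0.149, and it missed the threshold whenever 1 library was left out. The 7SL genes did not pass, at -0.06 ± 0.12 for RN7SL1 and -0.07 ± 0.15 for RN7SL2, nor did RNY1 (-0.37 ± 0.40), RN7SK (-0.41 ± 0.19), VTRNA1-1 (-0.67 ± 0.27), RNU12 (-0.22 ± 0.27), RNU5E-1 (-0.07 ± 0.26), SNORD43 (-0.15 ± 0.26) or SNORD26 (-0.60 ± 0.24).

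For KO, 26 small RNA regions were tested for IP against input, and 12 passed (1 higher, 11 lower), with 56.5% of all 246 regions called, 25.6% higher and 30.9% lower. Their median was -0.39, beside 0.04 over all regions. Among the snRNAs, RNU5D-1 had 2869 and 3222 CPM in KO input against 1142 and 1304 in KO IP (-1.41 ± 0.17, adjusted p = 0.000770). RNU5A-8P had 910 and 1079 in input against 187 and 249 in IP (-2.28 ± 0.24, adjusted p = 0.000448). RNU5A-1 (-1.06 ± 0.21) and RNU5E-1 (-1.06 ± 0.23) fell as well. The RNU5A-1 peaks covered positions -1 to 10 in both KO IPs, against -1 or -2 to 85 in the KO inputs, so its counts cover different stretches. The IP peaks of RNU5A-8P held 10 and 13 counts and those of RNU5E-1 11 and 12, near the list minimum of 10. RNU4-2 had 571 and 648 CPM in input against 562 and 595 in IP, and did not pass (-0.17 ± 0.19).

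Of 13 C/D box snoRNAs tested in KO, 6 fell and 7 did not pass. SNORD118 had 1527 and 1583 CPM in input against 300 and 403 in IP (-2.24 ± 0.23, adjusted p = 0.000430). SNORD1B fell by 1.87 ± 0.23, SNORD110 by 1.21 ± 0.25, SNORD26 by 0.96 ± 0.29, SNORD43 by 0.82 ± 0.23 and SNORD70 by 0.76 ± 0.22 on the log2 scale. The IP counts of SNORD1B (12 and 15), SNORD110 (15 and 11) and SNORD70 (14 and 12) were near the list minimum of 10. The SNORD43 peaks covered only positions 1 to 5 and -2 to 5 in the KO IPs, against -2 to 36 and -2 to 41 in the KO inputs. The 7 that did not pass ranged from SNORD24 at -0.33 ± 0.26 to SNORD59A at 0.35 ± 0.25, with SNORD57 at 0.07 ± 0.21. VTRNA1-2 fell too, from 792 and 827 CPM in the inputs to 543 and 326 in the IPs (-0.99 ± 0.27, adjusted p = 0.0187). RN7SL1 was the only one to rise, from 5404 and 5842 CPM to 9641 and 8765 (0.62 ± 0.13, adjusted p = 0.00706), and it also passed with DESeq2 (0.67, adjusted p = 7.8e-05). With DESeq2 5 of the 26 passed, and the part of all regions called was not computed for it.

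**Figure D3:**
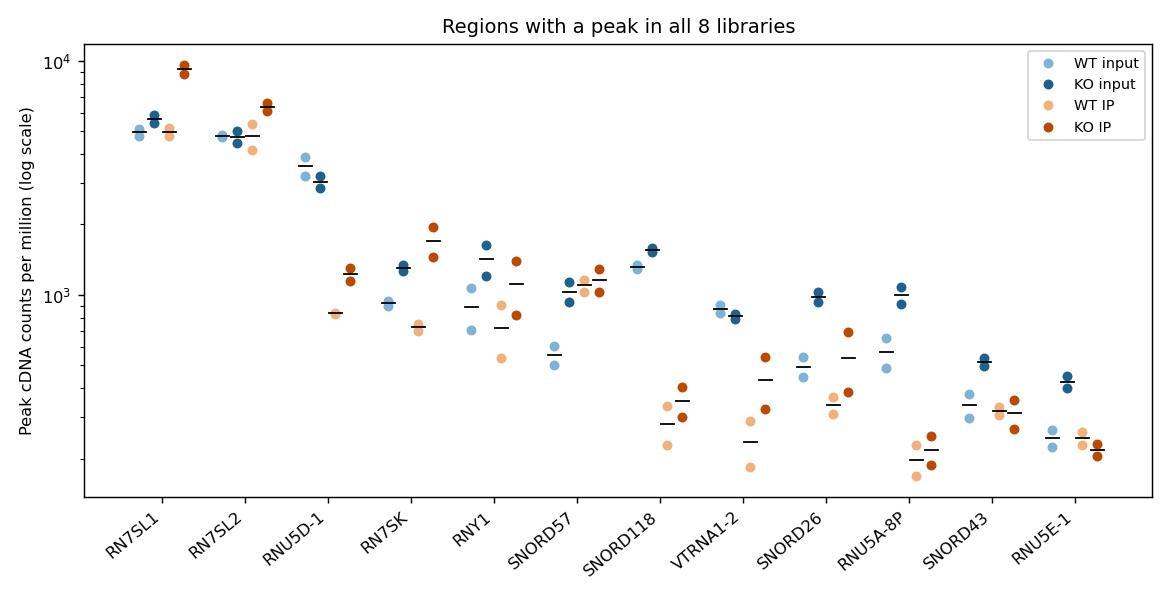
Peak cDNA counts in CPM (log axis) of the 12 regions with a peak in all 8 libraries, 1 point per library and a bar at the mean of each group of 2. RN7SL1 stands highest in the KO IPs (9641 and 8765), while RNU5D-1, SNORD118 and RNU5A-8P are lower in all IPs than in all inputs.

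The pulldown ratio was then compared between lines for the 12 regions with a peak in all 8 libraries, as an interaction (the WT log2 ratio minus the KO log2 ratio). RNU5E-1 and SNORD57 passed, 2 higher and none lower, with 30.1% of all 186 regions called, 19.9% higher and 10.2% lower; at an unadjusted p under 0.05 there were 3 higher and 0 lower, and DESeq2 called 0 higher and 1 lower. The RNU5E-1 difference was 1.35 ± 0.33 (adjusted p = 0.0196). Its CPM were 265 and 224 in WT input, 260 and 227 in WT IP, 401 and 452 in KO input and 206 and 230 in KO IP. The IP peaks of RNU5E-1 held 17 and 11 counts in WT and 11 and 12 in KO, near the list minimum of 10. The SNORD57 difference was 1.21 ± 0.29 (adjusted p = 0.0196), with 931 and 1131 CPM in KO input and 1030 and 1285 in KO IP. For both RNAs the IPs of the lines had similar CPM, and the KO inputs lay above the WT inputs. The direct comparison of the IPs gave 0.42 ± 0.35 for RNU5E-1 and 0.18 ± 0.30 for SNORD57, and neither passed.

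The interaction calls depended on scaling. With peak totals as library sizes the RNU5E-1 value was 0.97 (adjusted p = 0.0739) and the SNORD57 value 0.83 (adjusted p = 0.0602), and the calls were 0 higher and 2 lower instead of 2 and 0. That scaling moved the median of all 186 regions from 0.04 to -0.34. With RLE factors 2 were higher and 1 lower. RNU5D-1 (-0.40 ± 0.29), VTRNA1-2 (-0.64 ± 0.43), RN7SK (-0.35 ± 0.29) and RN7SL1 (-0.33 ± 0.21) did not pass in the reported fit.

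The IPs of the lines were compared directly for 13 regions. RN7SL1 and RN7SK passed, none higher and 2 lower in WT, with 37.3% of all 220 regions called and 18.6% in each direction; at an unadjusted p under 0.05 none was higher and 2 were lower, with edgeR and with DESeq2. RN7SL1 had 5167 and 4775 CPM in WT IP against 9641 and 8765 in KO IP (-0.63 ± 0.14, adjusted p = 0.00904). RN7SK had 749 and 703 in WT IP against 1947 and 1458 in KO IP (-0.97 ± 0.31, adjusted p = 0.0361), and its DESeq2 adjusted p was 0.121. Leaving out KO IP replicate 1 took RN7SL1 to -0.59 (adjusted p = 0.151) and RN7SK to -0.77 (adjusted p = 0.356), and leaving out KO IP replicate 2 took RN7SL1 to -0.77 (adjusted p = 0.0519) and RN7SK to -1.23 (adjusted p = 0.0885). Leaving out WT IP replicate 2 took RN7SK to -0.89 (adjusted p = 0.0868).

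RN7SL2, another 7SL gene, had 5366 and 4155 CPM in WT IP against 6121 and 6579 in KO IP and did not pass (-0.16 ± 0.18). RN7SL1 and RN7SL2 differ at 5 of 300 aligned positions, and none of these lies within positions 132 to 274 of RN7SL1, its tested region; the nearest is position 275. Only uniquely mapped reads were kept, so the split of 7SL reads between the genes is uncertain. RN7SL3 differs from RN7SL1 at 7 positions, including 242. It had 10 and 12 counts in the WT inputs, 13 in WT IP replicate 1, 41 and 28 in the KO IPs (768 and 537 CPM), and no listed peak in the KO inputs.

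Some RNAs were listed in the IPs of 1 line only and could not be tested. RNU4-2 had 30 and 31 counts in the KO IPs, 25 and 34 in WT input, 111 and 185 in KO input and no listed peak in the WT IPs. RNU4-1, which differs from it at 4 of 141 positions, had 12 and 11 counts in WT IP against 15 and 21 in KO IP (-0.49 ± 0.36 for WT over KO, not past the threshold). SNORD1B and SNORD110 had 12 and 15, and 15 and 11 counts in the KO IPs and none listed in the WT IPs. RNU12 showed the opposite, with 14 and 11 counts in the WT IPs, 88 and 121 in the KO inputs and no KO IP peak. VTRNA1-1 (above) was likewise listed in the WT IPs only. The peak of RNU12 in WT IP replicate 1 covered only positions 112 to 118. The IP counts of RNU4-1, SNORD1B, SNORD110, RNU12 and VTRNA1-1 lay between 11 and 21, near the list minimum of 10, and those of RNU4-2 at 30 and 31. VTRNA1-3 (17, 20, 51 and 59 counts) and RNY4 (13, 19, 45 and 91) were seen in all 4 inputs and in no IP. RNY3 and VTRNA2-1 had no listed peak in any library, and no gene named RNY5 was matched in the annotation.

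Most small RNA calls came from the comparison of the inputs, which asked how the lines differed before the pulldown. Of 66 small RNA regions with a peak in all 4 inputs, 25 passed (1 higher in WT, 24 lower), with 35.2% of all 400 regions called, 15.5% higher and 19.8% lower. The share called in either direction was close to that of all regions, while 36.4% of the small RNA regions were called lower. The median of the 66 was -0.72, beside -0.00 over all regions and 0.15 over the others, and 57 of the 66 values were below 0. The input samples were taken after ARP treatment and before streptavidin binding.

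Of 35 C/D box snoRNAs, 18 were lower in WT input and 17 did not pass; 34 of the 35 values were below 0 and their median was -0.85. SNORD68, in RPL13, had 127 and 214 CPM in WT input against 648 and 732 in KO input (-1.96 ± 0.30, adjusted p = 0.0221). Its peak in KO input replicate 1 began at position -118, in RPL13 sequence. SNORD24 had 149 and 153 in WT and 473 and 490 in KO (-1.63 ± 0.20, adjusted p = 0.0164). SNORD20, in NCL, had 170 and 173 in WT and 504 and 567 in KO (-1.59 ± 0.19, adjusted p = 0.0164). SNORD102, in RPL21, had 138 and 122 in WT and 365 and 385 in KO (-1.48 ± 0.21, adjusted p = 0.0208). In each of these 4 both KO inputs lay above both WT inputs. Peak extents were not equalized between libraries, so such CPM can cover different stretches. The SNORD102 peak covered positions 0 to 4 in WT input replicate 2, against -2 to 51 and 0 to 51 in the KO inputs. For SNORD24 the peaks ran from -1 to 51 in the WT inputs and from -2 to 54 in the KO inputs. SNORD58B (-1.31 ± 0.21), SNORD36A (-1.24 ± 0.24), SNORD1A (-1.23 ± 0.20), SNORD1B (-1.10 ± 0.17), SNORD18C (-1.06 ± 0.23), SNORD65 (-1.06 ± 0.22) and SNORD19C (-1.02 ± 0.23) were lower as well. SNORD118, in contrast, did not pass (-0.20 ± 0.12), nor did its copy (U8, ENSG00000200496) at -0.33 ± 0.19.

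The 6 H/ACA box snoRNAs tested did not pass, and all 6 values were below 0, from SNORA73B at -0.68 ± 0.36 to SNORA50C at -0.02 ± 0.31. SNORA25, the H/ACA region with the highest mean CPM, was at -0.59 ± 0.27. SCARNA4, a guide of spliceosomal RNA, was lower in WT, with 106 and 153 CPM against 309 and 301 in KO (-1.18 ± 0.25, adjusted p = 0.0372). Among the snRNAs, 5 of 12 were lower and 7 did not pass. RNU2-2P, an annotated U2 copy, had 159 and 255 CPM in WT and 453 and 532 in KO (-1.20 ± 0.28, adjusted p = 0.0401). RNU5A-1 had 361 and 347 in WT and 735 and 788 in KO (-1.06 ± 0.18, adjusted p = 0.0232). RNU4-2 (-0.95 ± 0.22) and the U5 copies RNU5E-6P (-0.96 ± 0.22) and RNU5A-8P (-0.76 ± 0.20) were lower too. RNU5D-1 did not pass at 0.27 ± 0.13, RNU5F-1 at 0.13 ± 0.19 or RNU11 at 0.00 ± 0.21.

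RN7SL1, RN7SL2 and the vault RNAs lay between -0.24 and 0.15, 7SK below 0, and the 4 Y RNA regions on both sides of it. RN7SL1 was at -0.14 ± 0.10, RN7SL2 at 0.06 ± 0.10, VTRNA1-1 at 0.03 ± 0.21, VTRNA1-2 at 0.15 ± 0.14, VTRNA1-3 at -0.24 ± 0.25, RN7SK at -0.45 ± 0.13 (adjusted p = 0.0531), RNY1 at -0.62 ± 0.25, RNY4 at -0.68 ± 0.28 and a Y RNA copy (Y_RNA, ENSG00000200506) at 0.33 ± 0.43. None of these passed. The single region higher in WT input was a Y RNA copy (Y_RNA, ENSG00000200291) on chromosome X, with 22 and 23 counts in WT input against 10 and 17 in KO input (2.10 ± 0.22, adjusted p = 0.0149). This region is 6 nt wide at the 5′ edge of the gene, and only the peak of KO input replicate 2 touched the gene itself.

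**Figure D4:**
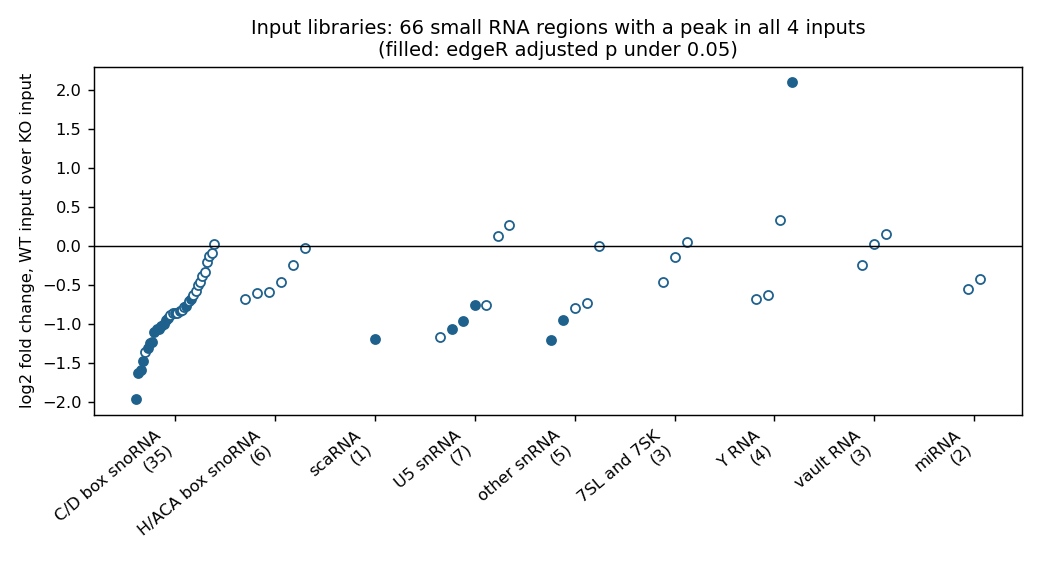
log2 fold change of WT input over KO input for the 66 small RNA regions with a peak in all 4 inputs, by RNA family with the number of regions in brackets, filled where edgeR's adjusted p was under 0.05. Of 35 C/D box snoRNAs 34 lie below 0, and vault RNAs and 7SL lie near 0.

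Most calls between the inputs were lost with DESeq2, when 1 library was left out, or when unlisted regions were set to 0. DESeq2 called 1 region (SNORD68, adjusted p = 0.0275), and leaving out 1 library gave 9 calls without WT input replicate 1 and 0 without any of the other libraries. With all 4 libraries 39 of the regions had an unadjusted p under 0.05 by edgeR and 5 by DESeq2. The median of the tested regions stayed between -0.57 and -0.89 in all fits that kept the requirement of a peak in every library. The KO inputs were also the deepest libraries, and the part of depth in the difference was not tested. Values are relative to the other peaks of a library, so more of these RNAs and less of the others cannot be told apart. Of the 218 regions, 115 also overlapped an exon of another gene on the same strand.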

How the data were processed

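Peak lists of 8 libraries were used, 2 per library (tRNA and rRNA, and genome). Per the study's methods, the authors ran the iCount consensus mapping pipeline, removed PCR duplicates by UMI, mapped reads with STAR to tRNA and rRNA and the rest to GRCh38, kept unique mappers and called peaks with Paraclu in each library. The deposited values are raw cDNA counts per peak, with no normalization and a lowest listed count of 10.

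Of 26 reference names, 25 were in the GRCh38 FASTA with all peak ends inside its lengths. Peaks overlapping by at least 1 nt on a strand were merged into 1373 regions. CPM used the summed peak counts of both lists. For each comparison, the regions listed in all of its libraries entered a fit with edgeR 4.0.16 under R 4.3.3 (TMM, quasi-likelihood, two-sided, Benjamini-Hochberg adjusted p under 0.05, over all regions tested) and, as an alternative, DESeq2 1.42.0. The SE was the log2 fold change divided by the square root of F. The fits were tested on simulated data without a list minimum, with 20 regions changed by a fold of 4. They recovered 95.5% to 98% of the changed regions. Wrong calls made up 2.05% to 8.41% of the calls, with 8.41% for WT input against KO input and 6.8% for KO IP against KO input. All regions were simulated with the same spread between replicates. Most reported calls were smaller than a fold of 4, and such changes were not simulated, so these rates do not carry over to them. Shares were compared by a two-sided exact permutation test.

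Named genes were those past the threshold (at most 15 per comparison), the 12 with the highest mean CPM, the highest of each family, those listed in both libraries of exactly 1 group, and 7SK, 7SL, Y and vault RNAs. The members and lists were chosen with earlier results of these data known. The replicate numbers were checked as pairs: over 186 regions, correlations of replicate deviations between groups ran from -0.0529 to 0.494, and per the methods each input was drawn from the RNA that then went into the pulldown, while nothing pairs WT with KO numbers. Some sequences are not reported here.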

Additional observations from a re-analysis of the deposited data

Results flagged for a closer look

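RNU5E-1 and SNORD57 were singled out because their pulldown ratio differed between the lines in the interaction test of edgeR. The WT log2 ratio minus the KO log2 ratio was 1.35 for RNU5E-1 (-0.07 in WT and -1.06 in KO) and 1.21 for SNORD57 (0.92 in WT and 0.07 in KO), both with an adjusted p of 0.0196. DESeq2 gave 1.18 for RNU5E-1 with no adjusted p and 1.04 for SNORD57 with an adjusted p of 0.0722. Over all 16 alternatives run for RNU5E-1 the value ranged from 0.93 to 1.45, and 8 kept the call. Over all 18 run for SNORD57 it ranged from 0.77 to 1.38, and 11 kept it. Groups of 2 libraries were too small for a test of single outlying samples.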

How the results depend on the processing

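No single region that passed changed its direction under any of the alternatives run, while 198 of 608 repeated tests of the 46 calls lost the threshold. DESeq2 called 3 small RNA regions for WT IP against WT input, 5 for KO, 1 between the IPs, 1 between the inputs and 1 for the interaction. With unlisted regions set to 0 the counts were 11 for WT, 128 for KO, 0 between the inputs and 7 for the interaction. In that setting 114 between the inputs and 12 between the IPs had an unadjusted p under 0.05 by edgeR. DESeq2 called 1 between the inputs in the main set. A region unlisted in an IP then counted as 0, although 10 counts were worth 153 to 207 CPM there, so these counts cannot be read as depletion. The part of all regions called was computed for the main edgeR fits only. A mean count of at least 50 left 3 calls for WT and 1 between the IPs, and peaks of at least 20 counts left 2 for WT, 3 for KO and 13 between the inputs; both fits held fewer regions. Without 1 library the counts ran from 3 to 4 for WT, 11 to 15 for KO, 0 to 2 between the IPs, 0 to 9 between the inputs and 0 to 2 for the interaction. With only the nuclear genome list as denominator, the shares were 20.7% (WT input), 37.5% (KO input), 8.94% (WT IP) and 25.2% (KO IP). With peaks of at least 20 counts the share was 2.77% in WT input and 2.48% in KO IP. Apart from these constructions the cause was not tested. The replicate block gave 5, 12, 2, 36 and 2 calls in the same order of comparisons; no region called without the block lost its call. Input and pulldown of a line came from the same RNA per the methods, and the correlation of replicate deviations of same-numbered input and IP was 0.494 in WT and 0.234 in KO. Between lines the numbers are not stated to pair the samples, and not every correlation over all groups was above 0.1. Depth limits the IPs most, since 10 counts were worth 153 to 207 CPM there.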
